A study of Mus musculus with 4 samples.

Results

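Gas6, Pros1 and 8 receptor tyrosine kinases were followed in RNA-seq of immortalized mouse embryonic fibroblasts (MEFs, a fibroblast line derived from mouse embryos). The group holds 2 ligands (Gas6 and Pros1), the 3 TAM receptors that they bind (Axl, Tyro3 and Mertk) and 5 growth factor receptors (Pdgfra, Pdgfrb, Egfr, Met and Fgfr1). These 10 genes, of 23366 in the table, were taken by symbol, with 1 value per gene and library. Results of these libraries were already known when the genes were picked, so their levels are given as a description and nothing is tested with them. There were 4 cultures and 1 library of each: MEFs carrying an empty vector, Myc, MycN or the protein labelled Minimal Myc. All of the cultures, the vector culture included, received Cre recombinase from an adenovirus, and RNA was taken after a recovery labelled 48 without a unit. The series design calls cells without an added Myc protein deleted for Myc. Whether a culture came from 1 clone is not stated in the labels. With 1 library per group there is no spread between replicates, no test and no p-value. The culture and the Myc protein it carried cannot be told apart.

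Receptor tyrosine kinases are cell surface proteins that pair up when a ligand binds and then phosphorylate each other to start Ras, Erk and Akt signalling. The TAM family is named after Tyro3, Axl and Mertk. Its ligands carry a domain modified by vitamin K that binds phosphatidylserine exposed on dying cells, so they bridge such cells to the receptor. Gas6, named as a growth arrest-specific gene found in fibroblasts, binds all TAM receptors, whereas Pros1, the anticoagulant protein S, acts through Tyro3 and Mertk but not Axl. Axl is known from fibroblasts and other mesenchymal cells, and Mertk is best known from macrophages that clear dead cells. Pdgfra and Pdgfrb are the PDGF receptors of mesenchymal cells, Egfr binds EGF family ligands, Met binds hepatocyte growth factor and Fgfr1 binds fibroblast growth factors.

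Levels are FPKM, fragments per kilobase of transcript relative to the library total, in the authors' unscaled table. Differences are those of log2(FPKM + 1), and a gene was called when it differed by at least 2-fold on that scale. The pseudocount understates differences of low genes. FPKM hold no read counts, so depth is unknown and no counting interval can be given. Myc itself was at 141 FPKM in Myc, 32.6 in Minimal Myc, 22.2 in vector and 4.36 in MycN, so the library labelled vector is not shown to lack Myc transcript. Mycn was at 178 FPKM in MycN, 95.9 in Minimal Myc, and 0.390 and 0.275 in vector and Myc. Small RNA genes made up 41.3% of the vector library's summed FPKM and 10.1 to 17.0% of the other sums. A filter kept the 11640 genes, small RNAs left out, whose mean over the libraries reached 1 FPKM. Their median difference from vector was 0.42 in MycN and 0.47 in both Myc and Minimal Myc. Every difference from vector below sits on this shift of all genes, and the part of the small RNA share in it was not tested. In the authors' scaled table the medians were 1.42 for Myc, 0.80 for Minimal Myc and 0.76 for MycN. Of 11 fibroblast markers that are not among the 10 genes, 10 passed the filter, and the sum of all 11 was 2716 to 3751 FPKM. All 7 endothelial and all 7 epithelial markers stayed under 1 FPKM in every library. Of 8 smooth muscle and pericyte markers 4 passed the filter, and the sum of the 8 was 456 FPKM in Minimal Myc, 451 in Myc, 371 in vector and 165 in MycN. The 4 that passed were each lower in MycN than in vector, by unlike amounts. Tagln was at 29.4 FPKM in MycN against 147, Myl9 at 3.30 against 33.3, Acta2 at 129 against 184 and Cnn1 at 2.04 against 3.90. Of those that did not pass, Des and Rgs5 were higher in MycN than in vector, and Myh11 and Cspg4 lower. Of 7 Schwann and neural markers 2 passed, and their sum of 13.1 to 24.4 FPKM was mostly Tubb3, a tubulin (8.88 to 20.6 FPKM).

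Promoter windows were available in the RefSeq table (build GRCm38.p6) for 8 of the 10 genes, all but Pdgfrb and Fgfr1, each with 250 bases before and 50 after the gene's start. They were searched for CACGTG, the E-box form best known as a Myc and Max binding sequence, which reads the same on both strands. It was in 1 of the 8 windows, that of Met, and in 7.15% of all 32851 windows of that length. The windows of Gas6, which had the widest range of the 10 genes, and of Met, which holds the motif, are printed in the direction of transcription, with CACGTG in capitals. Gas6 lies at chr8:13494486-13494785 on the minus strand, and Met at chr6:17463707-17464006 on the plus strand.
Gas6: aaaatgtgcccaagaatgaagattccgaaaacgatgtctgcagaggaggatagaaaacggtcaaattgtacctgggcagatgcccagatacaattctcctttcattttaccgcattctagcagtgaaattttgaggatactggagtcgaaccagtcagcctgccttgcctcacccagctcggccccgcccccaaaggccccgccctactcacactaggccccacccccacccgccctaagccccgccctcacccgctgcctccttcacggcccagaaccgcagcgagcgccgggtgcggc
Met: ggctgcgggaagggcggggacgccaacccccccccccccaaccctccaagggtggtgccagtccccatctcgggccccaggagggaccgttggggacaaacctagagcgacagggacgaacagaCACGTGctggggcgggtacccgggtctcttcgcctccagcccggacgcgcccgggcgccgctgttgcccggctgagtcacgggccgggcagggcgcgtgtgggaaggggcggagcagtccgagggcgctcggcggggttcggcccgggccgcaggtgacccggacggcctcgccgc
In the Met window the motif begins at base 125 from the left. Of the bases, 58.3% were G or C in Gas6 and 75.7% in Met, beside a median of 52.7% over all windows. The files give no binding data, so a match describes the letters only.

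Gas6, whose promoter window holds no CACGTG, had the widest range over the libraries. It was at 22.7 FPKM in Myc, 0.574 in Minimal Myc, 0.298 in vector and 0.0134 in MycN. The Myc library stood alone: its level was 76.3 times that of vector and 39.6 times that of Minimal Myc, the next highest. In bulk RNA, fewer cells with the transcript and less transcript per cell cannot be told apart. Gas6 passed the filter through the Myc library alone, since the other 3 were each under 1 FPKM. Against vector, the difference in Myc was 4.19 (log2), or 3.72 above the median of all genes, and it ranked at place 6 from the top among 11640 genes. In the scaled table it was 5.19. In MycN and Minimal Myc the differences from vector were -0.36 and 0.28. Both lie between values under 1 FPKM, so their size depends on the pseudocount. Between Myc proteins, Gas6 was lower by 4.55 in MycN than in Myc, at place 5 from the bottom, and Minimal Myc against Myc gave -3.91, at place 3 from the bottom. Among the genes of the RefSeq table, Tmem255b overlaps Gas6 in position. It was listed at 0 in vector, Myc and MycN and was 0.0117 FPKM in Minimal Myc.

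Pros1 had another order of libraries. It was at 33.7 FPKM in Minimal Myc, 12.6 in Myc, 10.5 in MycN and 6.13 in vector. Here Minimal Myc stood apart at 5.49 times vector and 2.68 times Myc. The difference from vector was 2.28 (log2) in Minimal Myc, 1.81 above the median of all genes. It was 0.93 in Myc and 0.69 in MycN, which are 0.46 and 0.27 above that median. The value in Myc is close to the 2-fold line, and with a pseudocount of 0.1 FPKM it was 1.02. Minimal Myc was also above the other Myc proteins, by 1.35 against Myc and 1.59 against MycN. In the scaled table the first of these was 0.73, short of 2-fold.

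**Figure D1:**
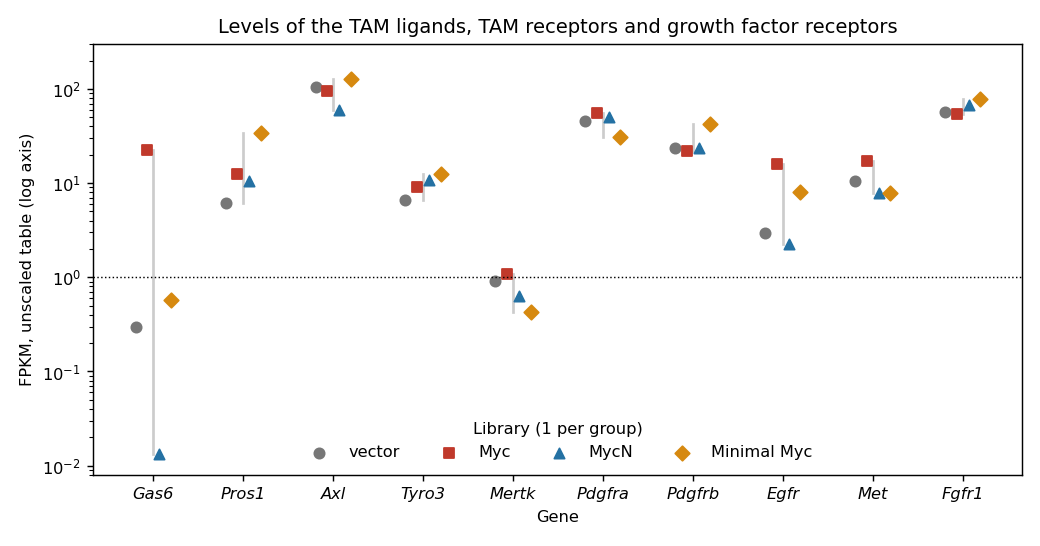
FPKM of the 10 genes in the unscaled table on a log axis, with 1 point per library, a grey bar from lowest to highest, and a dotted line at 1 FPKM. Gas6 spans 0.0134 to 22.7 FPKM with the Myc library far above the rest, Pros1 is highest in Minimal Myc, and Fgfr1 lies within 54.3 to 79.1 FPKM.

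Among the TAM receptors, Axl held most of the transcript in every library. Axl was at 129 FPKM in Minimal Myc, 104 in vector, 94.4 in Myc and 59.4 in MycN. It was thus above 89.2 to 95.9% of all genes past the filter in each library. MycN was the lowest and Minimal Myc the highest, with a difference of 1.10 (log2) between them. The summed smooth muscle and pericyte markers were also lowest in MycN. Their sums in Minimal Myc and Myc were close, at 456 and 451 FPKM, and Myc was above vector, unlike for Axl. The factor of the scaled table was 2.04 for Myc and 1.28 for Minimal Myc, so the order of these sums depends on the scaling. By gene, Acta2 and Myl9 were highest in Myc, and Tagln and Cnn1 in Minimal Myc. The part of these markers in the Axl levels was not tested. Against vector the difference of Axl was -0.80 in MycN, -0.14 in Myc and 0.30 in Minimal Myc. Relative to the median of all genes these were -1.22, -0.62 and -0.18. In the scaled table they were -0.43, 0.88 and 0.66, so the direction in Myc depends on the scaling. Axl was then highest in Myc, at 193 FPKM against 165 in Minimal Myc, and Minimal Myc against Myc turned from 0.44 to -0.22.

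Tyro3 was at 12.4 FPKM in Minimal Myc, 10.7 in MycN, 9.08 in Myc and 6.69 in vector. Its highest level was 1.86 times its lowest. The differences from vector of 0.81 (log2) in Minimal Myc, 0.61 in MycN and 0.39 in Myc are 0.33, 0.19 and -0.08 relative to the median of all genes. In the scaled table they were 1.14, 0.96 and 1.34, and Tyro3 was highest in Myc, at 18.5 FPKM against 16.0 in Minimal Myc. Mertk was the lowest receptor of the family, at 1.07 FPKM in Myc, 0.915 in vector, 0.634 in MycN and 0.433 in Minimal Myc. Its mean of 0.764 FPKM is under the filter, so Mertk enters no count. Markers that define macrophages were also low: Ptprc, Emr1, Itgam, Tyrobp and Fcer1g stayed under 1 FPKM in all libraries, and the summed 9 macrophage markers other than Mertk were at 12.5 to 16.1 FPKM. Most of that sum came from Cd14 and Cd68, which are not particular to macrophages. Csf1r, another marker of the list, also passed the filter, at 1.05 to 2.81 FPKM, and Lyz2 was at most 1.02.

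Axl led the TAM receptors in every library, whereas the leading ligand differed between libraries. Of the summed TAM receptor FPKM, Axl made up 93.2% in vector, 90.9% in Minimal Myc, 90.3% in Myc and 83.9% in MycN. Axl stood at 15.6 times Tyro3 in vector and 5.54 times in MycN. Both genes moved this ratio: in MycN, Axl was lower than in vector (59.4 against 104 FPKM) and Tyro3 higher (10.7 against 6.69). Gas6, the ligand that Axl binds, made up 64.4% of the summed ligand FPKM in Myc. It made up 4.63% in vector, 0.127% in MycN and 1.68% in Minimal Myc. The ligand sums were 35.3 FPKM in Myc, led by Gas6, and 34.2 in Minimal Myc, led by Pros1. In the scaled table they were 72.0 and 44.0, so how near they are depends on the scaling. In vector and MycN the sums were 6.43 and 10.5 FPKM. Shares within a library do not change with the scaling, because each library is multiplied by 1 factor.

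**Figure D2:**
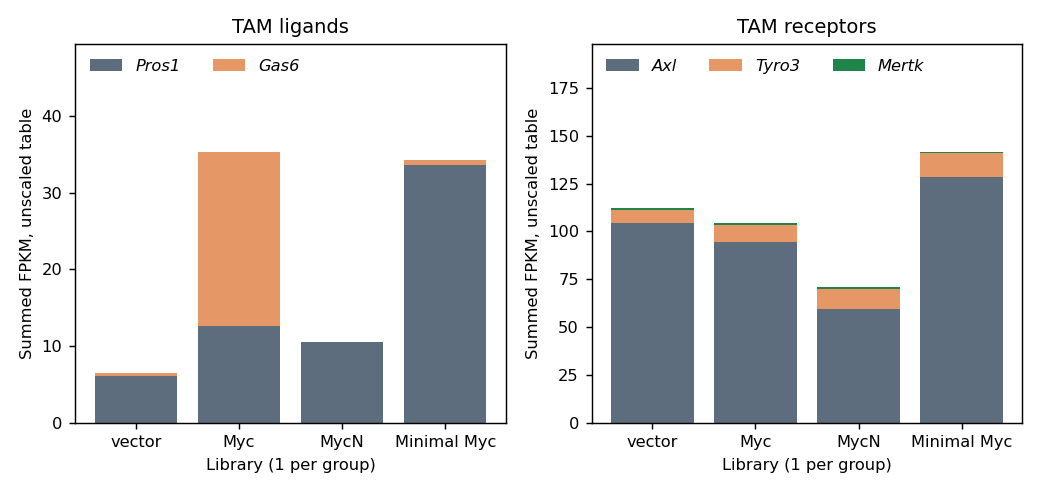
Summed FPKM of the TAM ligands (left) and TAM receptors (right) in each library of the unscaled table, as stacked bars. The ligand bars of Myc and Minimal Myc reach 35.3 and 34.2 FPKM with Gas6 at 64.4% of the first and 1.68% of the second, and Axl fills 83.9 to 93.2% of every receptor bar.

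Genes of the vitamin K system that modifies TAM ligands were measured as well. Gla domains are carboxylated by Ggcx with vitamin K that Vkorc1 and Vkorc1l1 recycle, and Calu is an inhibitor of that system. All 4 passed the filter and 0 were called in any comparison. Against vector, 11.2% of all genes were called higher and 1.56% lower in Myc. These shares were 7.65 and 1.86% in MycN, and 13.6 and 1.68% in Minimal Myc. A list of 4 genes is too short for 0 calls to show steady levels. The list median against vector was 0.65 for Myc, where that of all genes was 0.47. For MycN it was 0.56 beside 0.42, and for Minimal Myc 0.24 beside 0.47. Ggcx was at 8.31 FPKM in MycN, 7.16 in Myc, 5.28 in vector and 5.27 in Minimal Myc. The largest difference of the 4 was that of Vkorc1l1 in Myc, at 30.1 FPKM against 14.6 in vector (0.99, log2).

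Of 22 genes of phosphatidylserine-dependent uptake, 18 passed the filter. In Minimal Myc against vector 6 passed 2-fold upwards and 0 downwards, where 13.6% and 1.68% of all genes did, and the median was 0.52 against 0.47 over all genes. They include Itgb5, an integrin chain that binds the bridging protein Mfge8, at 85.0 FPKM against 26.6. The engulfment receptor gene Megf10 was at 6.55 against 1.17, and Thbs1, a secreted bridging protein, at 528 against 127. After subtraction of the median of all genes, 3 of 18 were higher and 0 lower in Minimal Myc, beside 3.71 and 4.68% of all genes. In Myc 0 were called, beside 1.87% higher and 4.38% lower. In MycN 0 were higher, beside 1.86%, and Thbs1 was lower, beside 4.19%. Without that subtraction, 1 of 18 was higher in Myc and 0 lower, beside 11.2 and 1.56% of all genes. This was Abca1, a lipid exporter, at 2.21 FPKM against 0.541, which passed the filter through the Myc library alone. In MycN 0 were called in either direction, beside 7.65% higher and 1.86% lower. The medians were 0.47 in Myc and 0.13 in MycN, beside 0.47 and 0.42 over all genes. Thbs1 was at 223 FPKM in Myc and 71.5 in MycN.

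Egfr had the widest range of the 5 growth factor receptors. It was at 16.0 FPKM in Myc, 8.0 in Minimal Myc, 2.98 in vector and 2.23 in MycN. Vector and MycN were low, Minimal Myc between, and Myc highest at 5.36 times vector. The differences from vector were 2.09 (log2) in Myc, 1.18 in Minimal Myc and -0.30 in MycN, or 1.62, 0.70 and -0.72 relative to the median of all genes. The call in Minimal Myc therefore rests on the shift of all genes, whereas that in Myc does not. In Myc, Egfr ranked at place 54 from the top among 11640 genes. Non-coding genes of the RefSeq table overlap Egfr, Met, Fgfr1 and Pdgfra in position and have no value here, and whether fragments were counted by strand is not stated.

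Met, the gene with CACGTG in its window, was at 17.2 FPKM in Myc, 10.5 in vector, 7.83 in Minimal Myc and 7.82 in MycN. The Myc library was highest, and MycN and Minimal Myc were nearly equal, 1.04 (log2) below Myc in both comparisons. Relative to the median of all genes these were -0.98 and -1.01, so the first is no longer called. Against vector the difference was 0.66 in Myc and -0.38 in both MycN and Minimal Myc. The ratio of Met to Egfr was 3.51 in vector and 3.50 in MycN, against 1.07 in Myc and 0.979 in Minimal Myc.

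Pdgfra was above Pdgfrb in all libraries but Minimal Myc, where the order was the reverse. Pdgfra was at 56.1 FPKM in Myc, 50.2 in MycN, 45.3 in vector and 31.0 in Minimal Myc. Pdgfrb was at 42.1 FPKM in Minimal Myc, 23.5 in vector, 23.5 in MycN and 21.7 in Myc. Pdgfra exceeded Pdgfrb by 1.93 to 2.59 times in vector, Myc and MycN, and the ratio was 0.736 in Minimal Myc. This ratio is the same in the scaled table. Neither receptor reached 2-fold in unscaled FPKM. In Minimal Myc against vector Pdgfra stood at -0.53 and Pdgfrb at 0.82 (log2), and after subtraction of the median of all genes at -1.01 and 0.34. Fgfr1 was the steadiest of the receptors past the filter, at 79.1 FPKM in Minimal Myc, 66.8 in MycN, 57.4 in vector and 54.3 in Myc. Of all genes past the filter, 79.1% had a wider range over the 4 libraries than Fgfr1. In the scaled table Fgfr1 was highest in Myc, at 111 FPKM, and lowest in vector, so its order depends on the scaling.

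Set against the median difference of all genes, the 9 past the filter did not all lie on 1 side in any comparison. In Minimal Myc against MycN 7 of the 9 were above it, with a median of 0.64 (log2) beside 0.05 over all genes. In MycN against vector 7 of the 9 were below it. Of the 9 past the filter, 2 were at least 2-fold higher in Myc than in vector, Gas6 and Egfr, where 11.2% of all genes were, and 0 were lower, where 1.56% were. In MycN 0 of 9 were higher and 0 lower, where 7.65% and 1.86% of all genes were. In Minimal Myc 2 were higher, Pros1 and Egfr, where 13.6% of all genes were, and 0 lower, where 1.68% were. Between MycN and Myc 3 were lower, Gas6, Egfr and Met, beside 2.74% of all genes, and 0 were higher, beside 1.95%. Between Minimal Myc and Myc 1 was higher, Pros1, beside 4.48%, and 2 were lower, Gas6 and Met, beside 2.16%. Minimal Myc against MycN had 3 higher, Pros1, Axl and Egfr, beside 6.94%, and 0 lower, beside 3.69%. Centred on the median of all genes, 1.87% of genes were higher and 4.38% lower in Myc than in vector, 1.86% and 4.19% in MycN, and 3.71% and 4.68% in Minimal Myc. The genes called then were Gas6 and Egfr, higher in Myc, Axl, lower in MycN, and Pros1, higher, and Pdgfra, lower, in Minimal Myc. On the scaled values 78.5% of all genes were higher and 0.498% lower in Myc than in vector, 27.4% and 1.25% in MycN, and 33.7% and 1.05% in Minimal Myc. Of the 9 genes, 6 were then higher in Myc, 1 was in MycN and 4 were in Minimal Myc, and 0 were lower. Between Minimal Myc and Myc the scaled table had 2.44% higher, with 0 of the 9, and 17.7% lower, with 4 of the 9. As the genes were chosen with these differences known, nothing is read from their shares. The median difference of the 9 from vector was 0.45 in Minimal Myc, 0.39 in Myc and 0.00 in MycN, beside 0.47, 0.47 and 0.42 over all genes. The 3 comparisons with vector share 1 vector library.

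**Figure D3:**
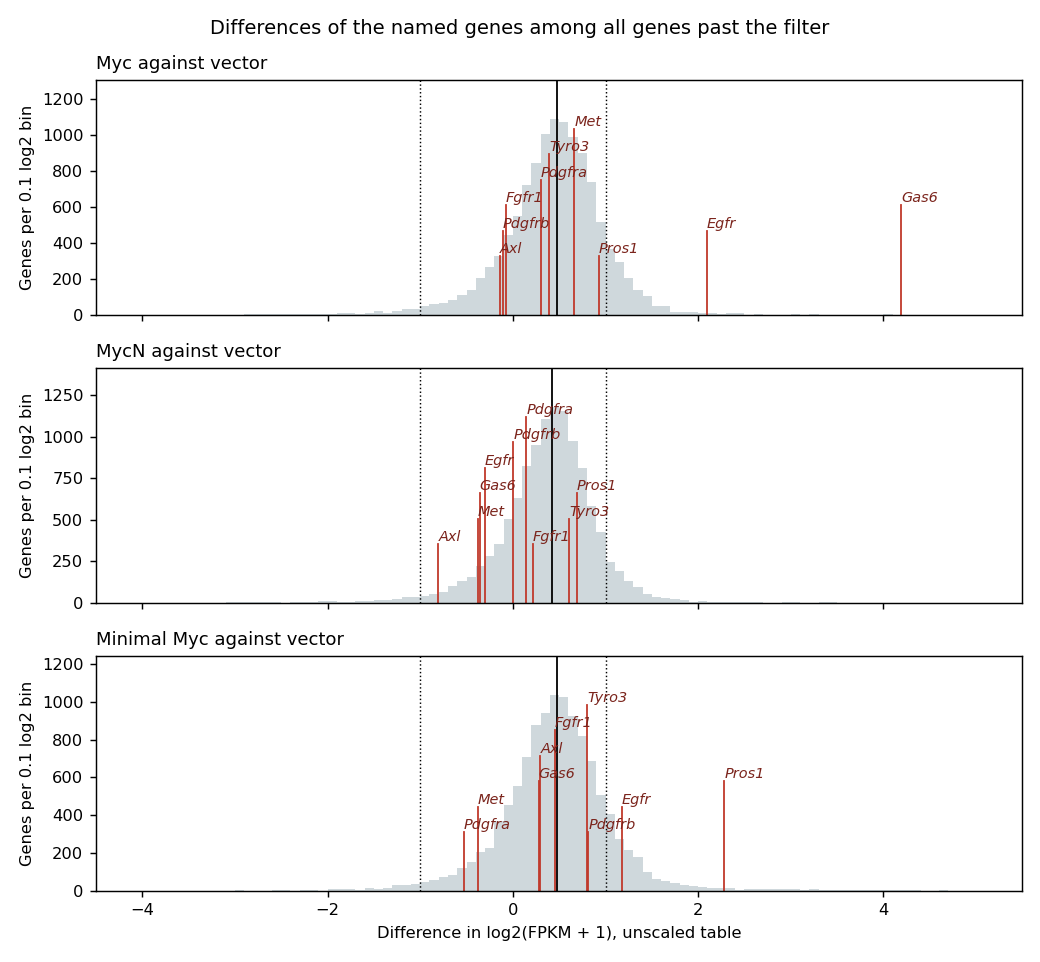
Difference in log2(FPKM + 1) from vector of the 9 genes past the filter (red lines, whose heights only keep labels apart) on the distribution of all 11640 genes (grey), with the median of all genes (black) and the 2-fold lines (dotted). Gas6 at 4.19 and Egfr at 2.09 lie in the right tail in Myc, Pros1 at 2.28 does in Minimal Myc, and Axl at -0.80 is the lowest of the 9 in MycN.

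Of 36 growth factor symbols listed, 35 were in the table and 22 passed the filter. The symbol not found, Vegfd, is another name of Figf, which was. Of the 22, 5 were at least 2-fold higher and 3 lower in Myc than in vector, 1 and 3 in MycN, and 8 and 1 in Minimal Myc. Igf2, 1 of those 8, passed the filter through Minimal Myc alone, at 3.58 FPKM. Igf1 (3.44 FPKM in Myc, 1.34 in Minimal Myc) and Angpt1 (2.62 and 5.91) were under 1 FPKM in vector and MycN. Their passing thus also leaned on the libraries where they were high. The matching shares of all genes were 11.2 and 1.56% in Myc, 7.65 and 1.86% in MycN, and 13.6 and 1.68% in Minimal Myc. The medians were 0.13, -0.17 and 0.58 (log2) in that order, beside 0.47, 0.42 and 0.47 over all genes. After subtraction of the median of all genes the counts were 0 and 4 in Myc, 1 and 7 in MycN, and 4 and 4 in Minimal Myc, beside 1.87 and 4.38%, 1.86 and 4.19%, and 3.71 and 4.68% of all genes, so the split depends on the scaling. The ligands named next for Egfr and the PDGF receptors were picked after their values were seen, except Pdgfd.

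Hgf, the ligand of Met, was at 29.3 FPKM in Minimal Myc, 5.60 in MycN, 3.04 in vector and 2.57 in Myc. It was thus highest in 1 of the 2 libraries where Met was lowest. Of the Egfr ligands, Hbegf was at 34.9 FPKM in vector, 26.4 in Minimal Myc, 16.6 in Myc and 12.1 in MycN. Ereg was at 46.2 FPKM in Minimal Myc, 17.0 in vector, 10.7 in Myc and 9.46 in MycN, and Areg and Btc were at most 1.70 FPKM. The library with the most Egfr, Myc, therefore had less Hbegf and Ereg by FPKM than vector did. In the scaled table the difference between Myc and vector was -0.04 (log2) for Hbegf and 0.33 for Ereg, so for Ereg the direction depends on the scaling.

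Pdgfd, a ligand of Pdgfrb, was at 4.96 FPKM in vector, 2.65 in Minimal Myc, 1.12 in Myc and 0.0268 in MycN. Vector was highest, and MycN was near 0. Pdgfa and Pdgfc, ligands of Pdgfra, were at 10.1 to 17.1 and 10.3 to 17.9 FPKM. Fgf2, a ligand of Fgfr1, was at 4.07 FPKM in vector and 0.716 to 1.22 in the other libraries, a difference that kept its sign in the scaled table (-0.54 in Myc, -1.39 in MycN, -1.36 in Minimal Myc). Fgf7, which acts on epithelial forms of Fgfr2, was at 162 FPKM in Minimal Myc, 96.3 in Myc, 37.3 in vector and 21.8 in MycN. Ptn, a heparin-binding growth factor, was at 230 to 343 FPKM in the cultures with a Myc protein and 109 in vector. Figf, a lymphatic growth factor of the VEGF family, was at 33.0 FPKM in Minimal Myc, 28.7 in Myc, 10.1 in vector and 9.25 in MycN. Angpt1, the ligand of the endothelial receptor Tek, was at 5.91 FPKM in Minimal Myc, 2.62 in Myc, 0.375 in vector and 0.0579 in MycN.

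**Figure D4:**
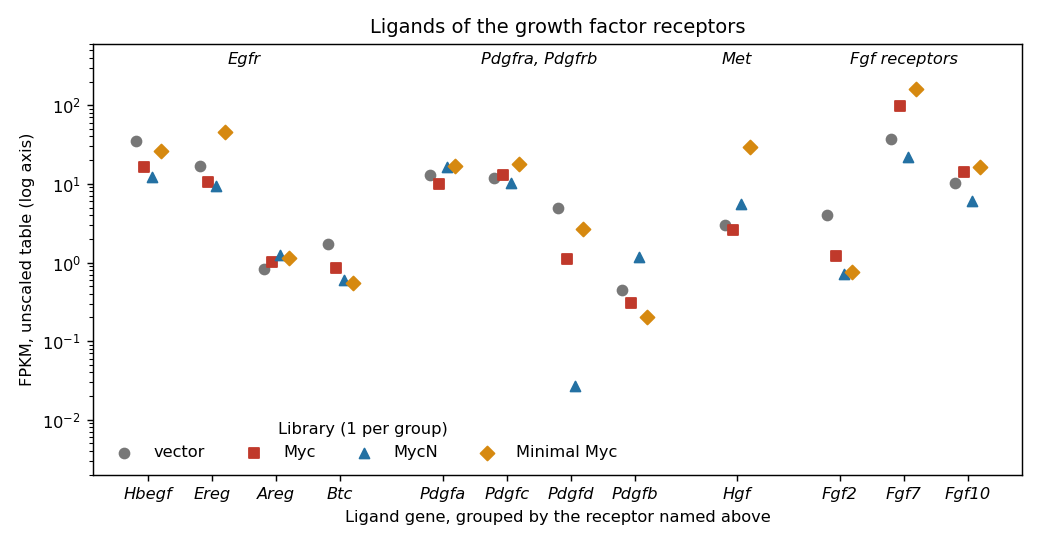
FPKM of ligand genes in the unscaled table on a log axis, with 1 point per library, grouped by the receptor they bind. Hgf and Ereg are highest in Minimal Myc at 29.3 and 46.2 FPKM, Fgf2 is highest in vector at 4.07, and Pdgfd is lowest in MycN at 0.0268.

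Of 46 other receptor tyrosine kinases, 19 passed the filter. In Myc against vector 1 was higher and 1 lower, in MycN 5 and 0, and in Minimal Myc 0 and 0, against 11.2 and 1.56%, 7.65 and 1.86%, and 13.6 and 1.68% of all genes. The medians were 0.18, 0.36 and 0.33 (log2), beside 0.47, 0.42 and 0.47 over all genes. After subtraction of the median of all genes the counts were 1 and 1, 2 and 0, and 0 and 1, beside 1.87 and 4.38%, 1.86 and 4.19%, and 3.71 and 4.68% of all genes. Erbb3, a partner of Egfr with a weak kinase of its own, was at 4.09 FPKM in Myc and at most 0.218 in the others. It therefore passed the filter, and entered the count, through the Myc library alone. Ephb2, an ephrin receptor, was at 0.707 FPKM in Myc and 4.48 to 5.58 in the others. MycN had the highest levels of Ptk7, a pseudokinase of planar cell polarity (72.6 FPKM, 26.5 in vector), Fgfr2 (10.2, 3.70 in vector) and Flt1, a VEGF receptor (3.42, 0.393 in vector). Flt1 passed the filter through MycN alone, since its level in each other library was under 1 FPKM. Ephb3 was at 6.66 FPKM in MycN against 2.82. In Minimal Myc the largest differences were not called: Ryk, a Wnt receptor, was at 61.7 FPKM against 32.1, Erbb2 at 13.2 against 7.20, and Csf1r at 1.05 against 2.42.

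Of 32 adaptors and effectors downstream of these receptors, 31 were in the table and passed the filter. In Myc 0 were called, in MycN 1 and in Minimal Myc 3, each of them higher, where 11.2%, 7.65% and 13.6% of all genes were. In these comparisons 0 were called in either direction after subtraction of the median of all genes. The matching shares of all genes, higher and lower, were 1.87 and 4.38%, 1.86 and 4.19%, and 3.71 and 4.68%. The medians were 0.44, 0.34 and 0.42 (log2), beside 0.47, 0.42 and 0.47 over all genes. Pik3r2, a regulatory subunit of PI3 kinase, was at 70.3 FPKM in MycN against 27.4. In Minimal Myc, Stat3 was at 36.4 FPKM against 15.2, Map2k1 (the kinase Mek1) at 86.5 against 41.0 and Rasa1, a GTPase activator of Ras, at 29.4 against 13.0.

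Of 29 genes that dampen receptor signals, 26 passed the filter. Dusp4, an Erk phosphatase, was at 44.3 FPKM in vector, 14.7 in Myc, 11.6 in Minimal Myc and 9.52 in MycN, and its difference stayed below 0 in the scaled table (-0.55 in Myc, -1.76 in MycN, -1.51 in Minimal Myc). Errfi1, an inhibitor of Egfr, was at 69.1 FPKM in Minimal Myc, 27.3 in vector, 18.8 in Myc and 10.5 in MycN. Spry4, a feedback inhibitor of Ras signalling, was at 2.71 FPKM in vector, 2.63 in Minimal Myc, 0.734 in Myc and 0.645 in MycN. Grb10, an adaptor that dampens insulin and IGF receptors, was at 17.5 FPKM in Myc and 38.7 in Minimal Myc against 0.0977 in vector and 0.105 in MycN. Grb14, of the same family, was at 31.9 FPKM in Minimal Myc against 10.7. Sh3kbp1, which helps Cbl take up receptors, was at 66.9 FPKM in Myc against 28.7. In all, 2 were higher and 2 lower in Myc, 1 and 3 in MycN, and 6 and 1 in Minimal Myc, where the shares of all genes were 11.2 and 1.56%, 7.65 and 1.86%, and 13.6 and 1.68%. The 26 had medians of 0.31, 0.15 and 0.55 (log2), beside 0.47, 0.42 and 0.47 over all genes. After subtraction of the median of all genes these counts were 1 and 4, 0 and 5, and 2 and 1, beside 1.87 and 4.38%, 1.86 and 4.19%, and 3.71 and 4.68% of all genes.

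Receptor ectodomains such as that of Axl are shed by the proteases Adam10 and Adam17, which Timp proteins restrain. All 7 genes of this list passed the filter, with 1 higher and 0 lower in Myc, 1 and 1 in MycN, and 3 and 0 in Minimal Myc, against 11.2 and 1.56%, 7.65 and 1.86%, and 13.6 and 1.68% of all genes. The medians were 0.56, 0.53 and 0.71 (log2), beside 0.47, 0.42 and 0.47. After subtraction of the median of all genes the counts were 1 and 1, 1 and 1, and 2 and 1, beside 1.87 and 4.38%, 1.86 and 4.19%, and 3.71 and 4.68% of all genes. Adam10 was at 17.2 to 28.9 FPKM and Adam17 at 11.7 to 22.7. Timp3, an inhibitor of Adam17, was at 79.1 FPKM in Myc, 23.2 in Minimal Myc, 6.26 in MycN and 5.56 in vector. Timp1 was at 708 FPKM in Minimal Myc, 144 in vector, 76.3 in Myc and 60.8 in MycN. Rhbdf2, which matures Adam17, was at 13.2 FPKM in MycN against 3.65 in vector, and its relative Rhbdf1 at 26.3 in Minimal Myc against 12.6.

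The genes with profiles most like Gas6 were found by the Euclidean distance between log2(FPKM + 1) profiles, each centred on its mean over the 4 libraries. Symbols that start with Gm and a number or with LOC, or that end in Rik, were left out of this search. Of the remaining genes, the nearest 5 were Sfrp2, Timp3, Pcdh20, Npnt and Galnt18, at distances of 1.49 to 1.75. Sfrp2, a secreted Wnt modulator, was at 8.40 FPKM in Myc and 0.457 to 0.594 in the others. Pcdh20 was at 4.47 FPKM in Myc and at most 0.114 in the others. Like Gas6, both passed the filter through the Myc library alone. Npnt, a matrix ligand of integrins, was at 19.3 FPKM in Myc, 5.71 in Minimal Myc, 2.2 in vector and 1.17 in MycN. By the same search, the nearest 5 to Egfr were Sorcs1, Col11a1, Ugt1a7c, Gria3 and Adora2b, at distances of 0.41 to 0.53. Adora2b, an adenosine receptor, was at 18.7 FPKM in Myc, 15.1 in Minimal Myc, 6.0 in vector and 3.26 in MycN. Among the 9 genes themselves, Tyro3 and Fgfr1 were nearest to each other at 0.36, while Gas6 and Pdgfrb were farthest apart at 4.0. The points of each profile are 4 libraries, so likeness here is weakly constrained.

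**Figure D5:**
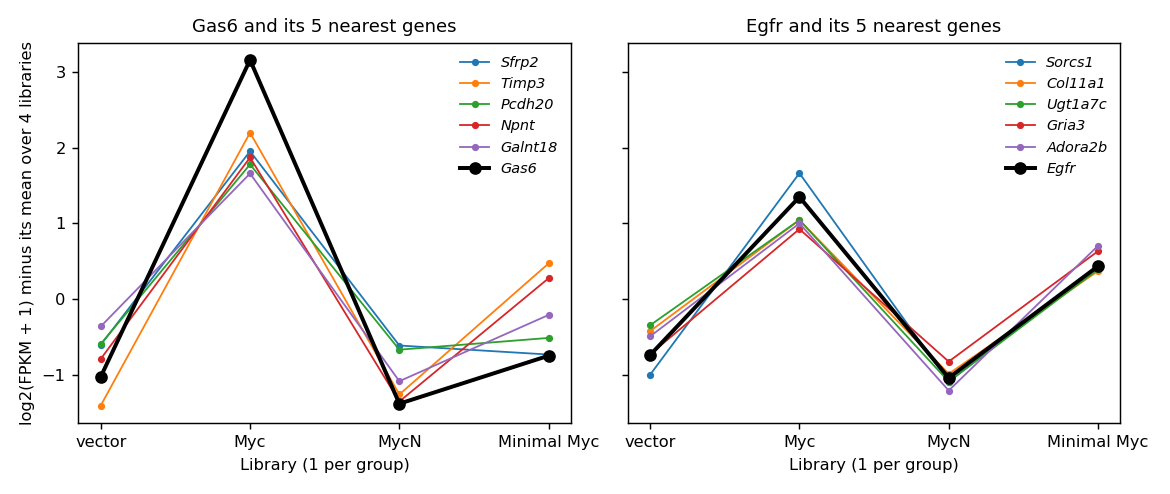
Values of log2(FPKM + 1) minus their mean over the 4 libraries for Gas6 (left) and Egfr (right) in black, with the 5 nearest genes of each in colour, where lines only join the values of 1 gene. Gas6 peaks in Myc above all 5 of its neighbours, at distances of 1.49 to 1.75, and the distances from Egfr are 0.41 to 0.53.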

How the data were processed

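RNA-seq libraries of 4 cultures were used, 1 per group, taken from the labels. Build mm9 and the tools Cufflinks 2.2.0 and TopHat2 2.0.11 come from the submitters' processing notes, which assign them no step. The authors deposited 2 tables of FPKM with 26608 identifier rows each. Of these, 32 rows, for 30 genes, hold NanoString signal on another scale. They were left out, and 0 of the 10 genes are among them. The second table equals the first times 1 factor per library: 2.04 for Myc, 1.30 for MycN, 1.28 for Minimal Myc and 1 for vector. ERCC spike-ins are named in the labels, and 0 rows of the tables carry an ERCC name.

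Identical rows of a gene were merged and differing rows summed. Genes whose mean reached 1 FPKM were kept, without 310 small RNA genes (symbols starting with Mir, Snora, Snord, Scarna or Rnu). This left 11640 genes, 9 of the 10 among them. Differences of log2(FPKM + 1) were called at 2-fold, a step checked on simulated data with known differences, with Python 3.11.15 and pandas 2.3.3. The 10 genes and all lists were chosen with earlier results of these data known. Named beside them were up to 3 genes per list with the largest difference in each comparison with vector, without genes listed at 0 in a library, and the 5 nearest profiles to Gas6 and to Egfr. Pdgfa, Pdgfc, Hbegf, Ereg, Areg, Btc, Igf1, Igf2, Tmem255b and single cell type markers such as Tagln and Cd14 were named outside that rule, after their values were seen. The figure of ligands also shows Pdgfb and Fgf10, which the rule did not pick. Some genes that the rule picked, such as Scarb1, Map2k2 and Nck1, are not named in the results. Alternatives were other pseudocounts, filters, centring, the scaled table and another merging of rows.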

Additional observations from a re-analysis of the deposited data

How the results depend on the processing

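With 1 library per group, no replicate can be left out and the size of a chance difference is unknown. No paired analysis was possible because each group has 1 library and no test was run. Depth is unknown, so levels under 1 FPKM, as for Gas6 outside Myc and for Mertk, have unknown precision.

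In the scaled table, the genes at least 2-fold higher than vector numbered 6 in Myc (2 in the unscaled table), 1 in MycN (0) and 4 in Minimal Myc (2), and Minimal Myc against Myc gave 0 higher (1) and 4 lower (2). Centring on the median of all genes gave 1 lower in MycN than in vector (0), and 1 higher (2) and 1 lower (0) in Minimal Myc. In MycN against Myc, centring gave 2 lower (3) and the scaled table gave 4 lower (3). With a pseudocount of 0.1 or 0.01 FPKM, Gas6 in MycN against vector made 1 gene lower (0), at -1.81 and -3.72 (log2). The same pseudocounts raised Gas6 in Minimal Myc against MycN from 0.64 to 2.57 and 4.64, for 4 genes higher (3), and Pros1 in Myc against vector from 0.93 to 1.02 and 1.04, for 3 higher (2). Other filters and row merging moved no count. No called difference of the 9 genes changed sign under any of these 7 alternatives.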
